A study of Mus musculus with 4 samples.

Results

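Transcript levels of 10 genes of the ERBB system were examined in cultured mouse mammary tumor cell lines: the receptor genes Egfr, Erbb2 and Erbb3, the EGFR ligand genes Tgfa, Areg, Ereg, Hbegf, Btc and Egf, and the neuregulin gene Nrg1. The genes were taken by symbol from the deposited expression table, which held all 10 of them among 38713 genes. The series compared 2 JNK_WT lines (genotype p53-/-, replicates 1 and 2) with 2 JNK_KO lines (genotype p53-/- JNK-/-, replicates 1 and 3), all of strain C57BL/6, with 1 RNA-seq library per line. In both groups a Wap-Cre transgene, which is active in luminal mammary epithelium upon lactation, had deleted floxed Trp53. In the JNK_KO group the floxed JNK1 and JNK2 genes (Mapk8 and Mapk9) were deleted as well. Each line was grown from dispersed tumor cells, first on collagen I and then on plastic in medium with serum. The lines were untreated, and with 1 library per line a genotype cannot be told apart from what is particular to a tumor or a line.

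ERBB receptors are membrane tyrosine kinases that bind EGF-like ligands, pair with each other and pass a growth signal to the RAS-ERK and PI3K-AKT pathways. EGFR binds EGF, TGF-alpha, amphiregulin, epiregulin, HB-EGF and betacellulin, ERBB3 and ERBB4 bind neuregulins, and ERBB2 has no ligand of its own and acts as the preferred partner of the others. Most of the ligands are made as membrane proteins and are released by ADAM proteases. In the mammary gland amphiregulin relays the estrogen signal during ductal growth, and ERBB2 is amplified in a subset of human breast cancers.

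The values are FPKM, that is, fragment numbers corrected for transcript length and library size, so levels can be compared between genes. They summed to between 775960 and 921595 per library, and the upper quartile of the genes tested lay between 33.2 and 34.3 FPKM. The targeted gene Mapk8 was at 23.9 and 19.1 FPKM in the JNK_WT lines and at 4.30 and 4.27 FPKM in the JNK_KO lines, while Mapk9 was at 29.7 and 24.3 FPKM against 12.6 and 8.66 FPKM. Trp53, floxed in all 4 lines, was at 1.55 and 4.15 FPKM in the JNK_WT lines and at 5.72 and 4.28 FPKM in the JNK_KO lines. All 10 luminal epithelial markers examined reached 1 FPKM in at least 1 line, and their summed level was 4077 and 3147 FPKM in JNK_WT lines and 1329 and 2789 FPKM in JNK_KO lines. The 8 basal markers summed to 26.3 and 736 FPKM in JNK_WT lines and 38.6 and 376 FPKM in JNK_KO lines. The 10 fibroblast markers summed to 13.3 and 4.36 FPKM against 109 and 204 FPKM, with Dcn providing most of the latter (79.7 and 162 FPKM) and Col1a1 and Lum under 1 FPKM in all 4 lines. Pdgfra was at 0.325 and 0.183 FPKM against 24.7 and 7.82 FPKM, Pdgfrb at 0.0404 and 0.194 FPKM against 2.17 and 2.99 FPKM, and Postn at 1.32 and 2.58 FPKM against 0.728 and 25.6 FPKM. Col1a2 had a lower mean in the JNK_KO lines, at 10.3 and 0.374 FPKM against 0.698 and 2.56 FPKM, with overlapping groups. It made up most of the fibroblast sum of JNK_WT replicate 1. Of the 5 fibroblast markers tested, 3 (Dcn, Pdgfra and Pdgfrb) had an unadjusted limma p-value under 0.05 (7.63% of all genes tested). In each of these 3, both JNK_KO lines lay above both JNK_WT lines (18.3% of all genes tested). After adjustment over all genes 0 passed at 0.05. The nearest was Dcn, with a log2 difference of 6.35 and a limma adjusted p-value of 0.0554. Over 9 other settings that kept all libraries, the adjusted value of Dcn ranged from 0.0450 to 0.372. None of the 5 endothelial markers and 2 of the 7 leukocyte markers (Cd68 and Cd14) reached 1 FPKM in any line, and the pan-leukocyte gene Ptprc was at most 0.0134 FPKM.

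To ask whether the ERBB genes differed between genotypes, JNK_KO lines were compared with JNK_WT lines on the log2(FPKM + 1) scale with limma, in a fit over all 12998 genes with at least 1 FPKM in at least 2 libraries. Of the 10 genes, 9 passed this filter and Egf did not. To be called, a gene needed an absolute log2 difference over 0.75 and an adjusted p-value under 0.05. By limma, 0 of the 9 genes were called, as were 0 of all genes tested (0%), so the comparison gives no call for any gene in the table. Unadjusted p-values under 0.05 were found for 1 of the 9 genes, Tgfa, beside 992 of all genes (7.63%). The JNK_KO and JNK_WT values did not overlap for Tgfa alone of the 9, whereas they did not overlap for 35.0% of all genes. Tgfa was also the only one of the 9 with a difference over 0.75 (15.7% of all genes) and the only one whose difference exceeded both the gap between the JNK_WT lines and that between the JNK_KO lines (23.6% of all genes). In 7 of the 9 genes the mean of log2(FPKM + 1) was lower in the JNK_KO lines (48.6% of all genes). Ereg was not among these, although its mean in FPKM was lower in JNK_KO lines. The median log2 difference of the 9 was -0.39, against 0.01 over all genes. Later counts of genes with higher or lower means are on the log2(FPKM + 1) scale too. With 2 lines against 2, only 3 splits of the lines exist, and the smallest two-sided p-value an exact permutation test could give is 0.333.

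**Figure D1:**
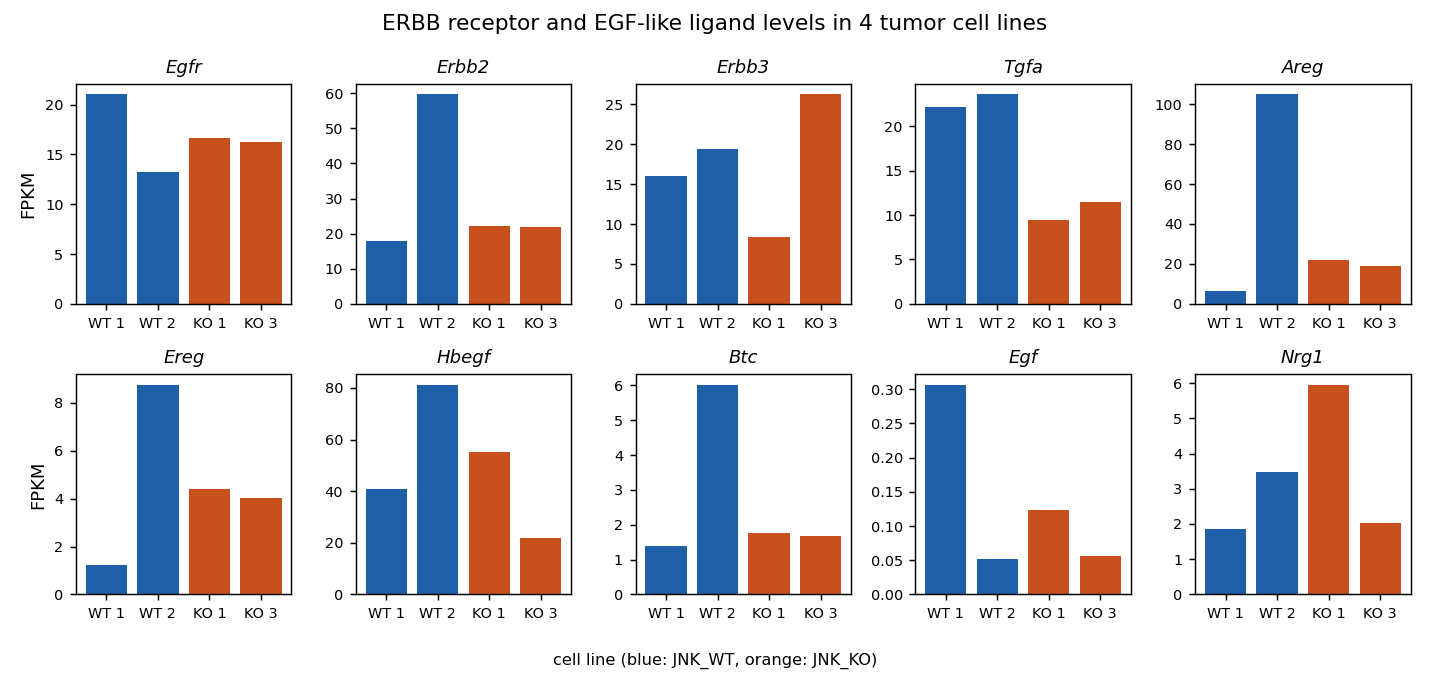
Level in FPKM (y axis, linear, a scale of its own in each panel) of the 10 genes in each of the 4 cell lines (x axis, 1 library per bar, JNK_WT blue, JNK_KO orange). Tgfa is the gene among the 9 tested whose 2 JNK_KO bars both lie below both JNK_WT bars. Areg, Ereg, Btc and Erbb2 share a peak in JNK_WT replicate 2 and a low in JNK_WT replicate 1.

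**Figure D2:**
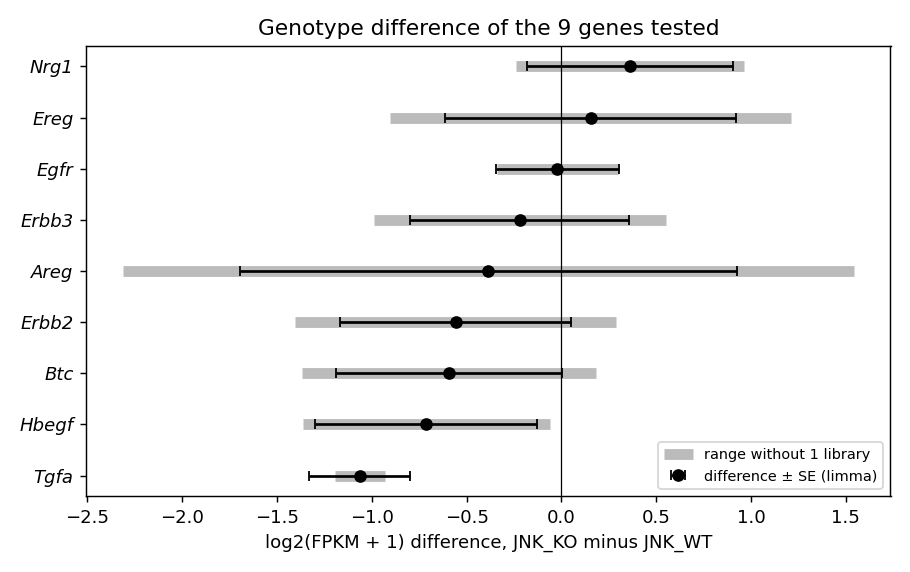
Difference in log2(FPKM + 1), JNK_KO minus JNK_WT (x axis), of the 9 genes tested (y axis), with the standard error from limma as a black bar and the range over the 4 fits that each left out 1 library as a grey band. The band of Tgfa runs from -1.20 to -0.93, whereas that of Areg runs from -2.31 to 1.54.

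Tgfa encodes TGF-alpha, a high-affinity EGFR ligand that is made by many carcinomas. Its level was 22.1 and 23.6 FPKM in the JNK_WT lines and 9.42 and 11.5 FPKM in the JNK_KO lines. Both JNK_KO lines were thus below both JNK_WT lines, and each pair was close together. The means were 22.9 ± 1.06 and 10.5 ± 1.49 FPKM (SD, n = 2 each), a ratio of 2.18 in favor of JNK_WT. The log2 difference was -1.06 (SE 0.27, 95% interval -1.77 to -0.35), with a limma p-value of 0.0130 before and 0.441 after adjustment over all genes. The adjusted value ranged from 0.423 to 0.506 over 9 other settings that kept all libraries. In such bulk libraries, fewer expressing cells and less RNA per cell cannot be told apart. The gene lies on chromosome 6 (mm10, start 86195223, plus strand). The genes next to it showed the same pattern: of 27 tested genes within 1 Mb, 22 were lower in both JNK_KO lines than in both JNK_WT lines and 2 were higher, with a median log2 difference of -0.72. For all genes tested the share with JNK_KO below JNK_WT was 16.7%, whereas for chromosome 6 it was 56.2% of 628 genes. The median difference over the other 627 genes of chromosome 6 was -0.59. The difference of Tgfa was exceeded, on the lower side, by 5 of its 27 neighbours and by 15.0% of the genes of chromosome 6, compared with 2.89% of all genes. The part of this shift along the chromosome in the Tgfa difference was not tested. From exome sequencing, the authors reported that the chromosome carrying Tgfa was amplified in JNK_WT tumor cells and in some JNK_KO tumor cells. Copy number was not examined here, and its part in the shift was not tested.

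The 250 bases before the start of Tgfa are shown because it is the gene whose genotype groups were separate. Those of Areg, the member of widest range, and of Btc are shown beside them. Btc lies near Areg on chromosome 5 and had the same order of the 4 lines, as did Erbb2 on chromosome 11. The sequences are from RefSeq (GRCm38.p6), which held promoters for 6 of the 10 genes (Egfr, Erbb2, Tgfa, Areg, Btc and Egf) and not for Erbb3, Ereg, Hbegf and Nrg1. They were searched on both strands for the AP1 motif TGANTCA, bound by FOS-JUN dimers, and for the motif TGACGTCA, bound by CREB and ATF proteins, some of which are JNK substrates. The motifs cannot share a whole match. Capitals mark a match.
Tgfa (chr6:86194972-86195221, plus strand): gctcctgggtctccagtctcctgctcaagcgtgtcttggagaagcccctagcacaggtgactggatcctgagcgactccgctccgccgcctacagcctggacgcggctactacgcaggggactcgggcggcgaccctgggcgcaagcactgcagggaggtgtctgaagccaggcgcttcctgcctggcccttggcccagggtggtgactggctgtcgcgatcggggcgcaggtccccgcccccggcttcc
Areg (chr5:91139349-91139598, plus strand): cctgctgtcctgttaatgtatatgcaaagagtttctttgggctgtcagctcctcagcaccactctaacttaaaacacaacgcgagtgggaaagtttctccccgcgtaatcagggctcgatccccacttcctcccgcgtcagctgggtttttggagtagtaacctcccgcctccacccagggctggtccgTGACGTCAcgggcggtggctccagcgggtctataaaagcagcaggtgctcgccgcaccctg
Btc (chr5:91402995-91403244, minus strand): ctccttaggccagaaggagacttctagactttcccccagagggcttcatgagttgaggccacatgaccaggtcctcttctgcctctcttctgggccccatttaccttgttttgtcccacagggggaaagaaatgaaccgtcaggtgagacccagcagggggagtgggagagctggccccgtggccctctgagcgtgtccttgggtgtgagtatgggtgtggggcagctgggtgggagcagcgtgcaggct
Areg held 1 match, to TGACGTCA, whose first base lay 61 bases before the start, and no match was found in the other windows of the 6 genes. Among 32817 promoter windows of this length, 6.75% held TGANTCA and 1.55% held TGACGTCA. A match describes the letters of the window and not the binding of a factor in these cells.

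**Figure D3:**
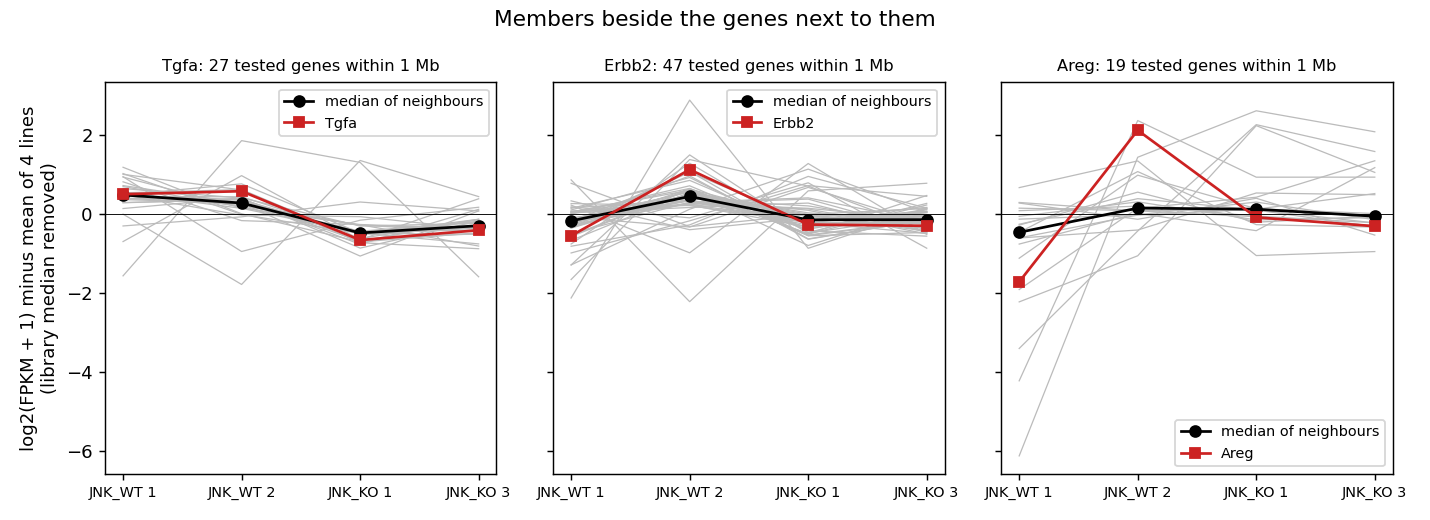
Deviation of log2(FPKM + 1) from the mean of the 4 lines, after removal of each library's median over all genes (y axis), in each cell line (x axis), for Tgfa, Erbb2 and Areg (red), the tested genes within 1 Mb of each (grey, 1 line per gene) and the median of those genes (black). The lines join values of 1 gene and imply no order of the samples. Tgfa runs close to the median of its 27 neighbours, while Areg in JNK_WT replicate 2 is at 2.12 against a neighbour median of 0.15.

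Among the receptors, Egfr was the most even across lines. It was at 21.0 and 13.2 FPKM in the JNK_WT lines and at 16.6 and 16.3 FPKM in the JNK_KO lines. The JNK_KO values fell between the JNK_WT values, and the highest was 1.60 times the lowest. The log2 difference was -0.02 (SE 0.33) with a 95% interval of -0.89 to 0.85, so that differences of either sign within this interval are not excluded. Egfr (chromosome 11, start 16752203, plus strand) had a higher mean level than 55.2% of the genes tested.

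Erbb2, the ligandless partner receptor, was at 17.8 and 59.7 FPKM in the JNK_WT lines and at 22.1 and 21.8 FPKM in the JNK_KO lines. One line, JNK_WT replicate 2, stood at 3.35 times the other JNK_WT line, while the other 3 lines were close together. The log2 difference of -0.56 (SE 0.61, limma adjusted p-value 0.979) rested on that line and became 0.29 without it. Erbb2 (chromosome 11, start 98412470, plus strand) lies in a gene-dense stretch, and its 47 tested neighbours within 1 Mb had a median deviation of 0.44 in JNK_WT replicate 2, against -0.18 in JNK_WT replicate 1 and -0.15 in each JNK_KO line. The deviation of Erbb2 itself in JNK_WT replicate 2 was 1.12. Chromosome 11 as a whole had a median deviation of 0.35 in that line. The last part of Erbb2 overlaps Mien1 on the opposite strand, and since no strand setting was given for the libraries, reads there could be shared. Mien1 was at 32.0 and 53.3 FPKM in the JNK_WT lines and at 21.4 and 19.6 FPKM in the JNK_KO lines.

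Erbb3 encodes a neuregulin receptor with little kinase activity of its own that signals through its partners, and it is a gene of luminal cells in the mammary gland. It was at 16.0 and 19.4 FPKM in the JNK_WT lines and at 8.37 and 26.3 FPKM in the JNK_KO lines. The JNK_KO lines were the lowest and the highest of the 4 and differed 3.14-fold, more than the JNK_WT lines did (1.21-fold). The log2 difference was -0.22 (SE 0.58, limma adjusted p-value 0.999). Without JNK_KO replicate 1 it was 0.55. The line with the lowest Erbb3, JNK_KO replicate 1, also had the lowest summed level of luminal markers (1329 FPKM). The line with the highest Erbb3 did not have the highest sum. Krt8, Krt18, Epcam, Cdh1, Cldn3, Cldn4 and Cldn7 were lowest in JNK_KO replicate 1. Krt19 and Elf3 were not, and Esr1 was highest there (2.52 FPKM). The part of luminal cells in the Erbb3 values was not tested.

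The balance of the receptors therefore differed by line. Erbb2 was at 0.846 times the level of Egfr in JNK_WT replicate 1 and at 4.53 times in JNK_WT replicate 2, and at 1.33 and 1.34 times in the JNK_KO lines. Of the summed FPKM of the 3 receptors, Egfr made up 38.4% in JNK_WT replicate 1, where it was the most abundant, and 14.3% in JNK_WT replicate 2, where Erbb2 made up 64.7%. In JNK_KO replicate 1 Erbb2 led with 46.9%. In JNK_KO replicate 3 Erbb3 led with 40.8%. The sum was 73.6 ± 26.5 FPKM in JNK_WT and 55.7 ± 12.2 FPKM in JNK_KO lines (SD, n = 2 each), so the groups differed by less than the JNK_WT lines did from each other.

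**Figure D4:**
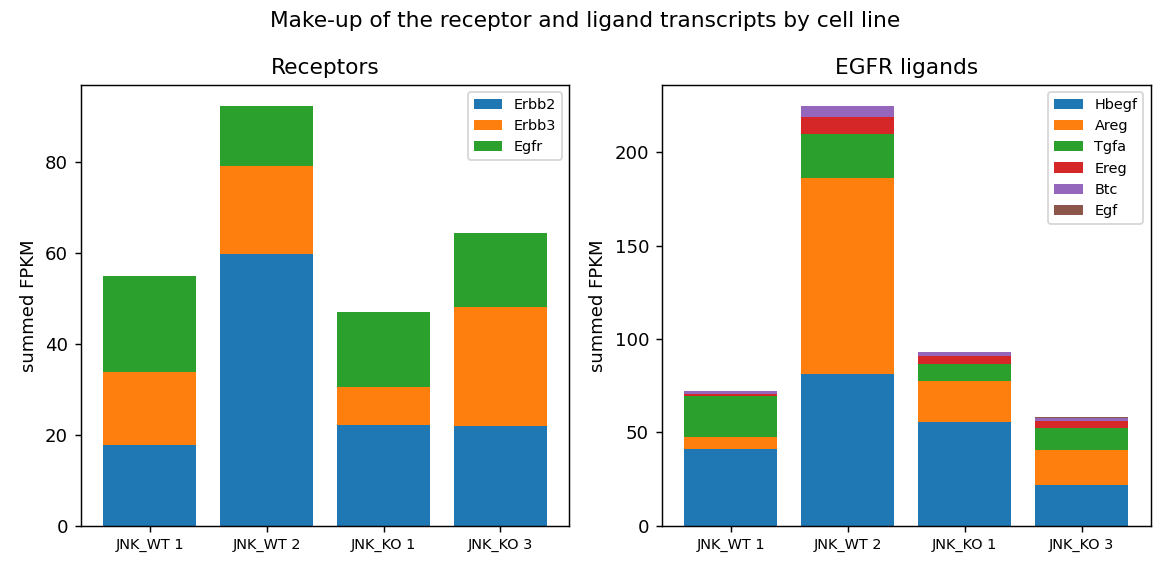
Summed FPKM (y axis, linear from 0) of the 3 receptors (left) and of the 6 EGFR ligands (right) in each cell line (x axis), with the part of each gene in color. The ligand sum of 225 FPKM in JNK_WT replicate 2 exceeds those of the other lines, which lie between 58.0 and 92.9 FPKM, mostly through Areg.

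Areg, Ereg and Btc encode the EGFR ligands amphiregulin, epiregulin and betacellulin, and epiregulin and betacellulin also act on ERBB4. The 3 genes lie near each other on chromosome 5, with Ereg at 91074622 to 91093646 and Areg at 91139599 to 91148432 on the plus strand and Btc at 91357261 to 91402994 on the minus strand. Areg was at 6.32 and 105 FPKM in the JNK_WT lines and at 21.9 and 18.8 FPKM in the JNK_KO lines. Ereg was at 1.25 and 8.76 FPKM in the JNK_WT lines and at 4.41 and 4.02 FPKM in the JNK_KO lines. Btc was at 1.39 and 6.02 FPKM against 1.76 and 1.67 FPKM. In each of the 3 genes JNK_WT replicate 2 was the highest, followed by JNK_KO replicate 1, JNK_KO replicate 3 and JNK_WT replicate 1. This order was found in 4.93% of all genes tested. Erbb2, on chromosome 11, had it too, at 59.7, 22.1, 21.8 and 17.8 FPKM. The JNK_WT lines differed from each other 16.6-fold in Areg, 7.02-fold in Ereg and 4.32-fold in Btc, whereas the JNK_KO lines differed by at most 1.16-fold in any of the 3.

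The spread between the JNK_WT lines left the genotype difference of these ligands undetermined. The log2 difference of Areg was -0.39 with an SE of 1.31 and a 95% interval of -3.88 to 3.10. That of Ereg was 0.15 (SE 0.77) and that of Btc -0.59 (SE 0.60), and the limma adjusted p-values of the 3 genes were at least 0.978. Set against JNK_WT replicate 1 alone the log2 difference of Areg was 1.54, and against JNK_WT replicate 2 alone it was -2.31. The 19 tested genes within 1 Mb of Areg include Ereg, Btc, Epgn and Mthfd2l. Their median deviation was -0.47 in JNK_WT replicate 1 and 0.15 in JNK_WT replicate 2, where Areg itself deviated by -1.72 and 2.12. Of these 19 genes, 17 had a narrower gap between the JNK_WT lines than Areg and 2 a wider one. The latter were Cxcl1 and Cxcl5, chemokine genes whose products attract neutrophils, named after their values were seen. Cxcl1 was at 5.32 and 616 FPKM in the JNK_WT lines and at 227 and 229 FPKM in the JNK_KO lines. Cxcl5 was at 2.29 and 630.0 FPKM against 1425 and 996 FPKM, so that its level was lowest in JNK_WT replicate 1, as for Areg, but highest in JNK_KO replicate 1. Mthfd2l, a mitochondrial folate enzyme gene at 90931117 to 91021368 beside the ligand genes, followed the same order of lines in a narrower range, at 6.85 and 11.4 FPKM in the JNK_WT lines and 9.18 and 7.18 FPKM in the JNK_KO lines. JNK_WT replicate 2 also had the highest summed level of basal markers (736 FPKM). JNK_KO replicate 3 was next in that sum (376 FPKM) and had less Areg than JNK_KO replicate 1, whose basal sum was 38.6 FPKM. Krt14 provided most of the sum in JNK_WT replicate 2 and JNK_KO replicate 3 (443 and 313 FPKM). In the same 2 lines Krt5 was at 61.9 and 0.205 FPKM and Acta2 at 3.19 and 29.0 FPKM. The part of basal cells in the Areg values was not tested.

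Areg had the widest range of the 9 genes, and the genes with the most similar profile over the 4 libraries were sought by the root mean square difference of centered log2(FPKM + 1) values. The nearest were Spats2l (0.28), Gm26141 (0.31) and Egr3 (0.31), the last an immediate-early transcription factor gene of the EGR family. Egr3 was at 0.0952 and 11.7 FPKM in the JNK_WT lines and at 1.16 and 2.29 FPKM in the JNK_KO lines. Among the ERBB system genes the nearest to Areg were Ereg (rank 70 of all genes tested), Erbb2 (rank 131) and Btc (rank 185). With 4 libraries, such likeness describes these lines only.

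Hbegf, the gene for heparin-binding EGF-like growth factor (chromosome 18), was the most abundant ligand in 3 of the 4 lines. It was at 41.0 and 81.3 FPKM in the JNK_WT lines and at 55.3 and 21.8 FPKM in the JNK_KO lines. The groups overlapped, and the lines within each group differed 1.98-fold and 2.53-fold. The log2 difference was -0.71 (SE 0.58, limma adjusted p-value 0.942), and it was -0.06 without JNK_KO replicate 3. Its mean level was above that of 83.2% of the genes tested. Egf, the founding member of the ligand family, was at 0.307 and 0.0521 FPKM in the JNK_WT lines and at 0.124 and 0.0560 FPKM in the JNK_KO lines, so that it contributed at most 0.424% of the ligand sum in any line.

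The ligand sum was 72.4 and 225 FPKM in the JNK_WT lines and 92.9 and 58.0 FPKM in the JNK_KO lines. JNK_WT replicate 2 stood apart, and the other JNK_WT line lay between the JNK_KO lines. Hbegf made up 56.6% of the sum in JNK_WT replicate 1, 59.5% in JNK_KO replicate 1 and 37.7% in JNK_KO replicate 3, but 36.2% in JNK_WT replicate 2, where Areg made up 46.7%. Tgfa held the second place in JNK_WT replicate 1 (30.6%), and Areg held it in both JNK_KO lines (23.6% and 32.5%). Thus the share of Tgfa was 30.6% and 10.5% in JNK_WT lines and 10.1% and 19.9% in JNK_KO lines, and its groups overlapped as a share although they did not as a level.

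Nrg1 encodes neuregulin 1, a ligand of ERBB3 and ERBB4. It was at 1.85 and 3.47 FPKM in the JNK_WT lines and at 5.95 and 2.02 FPKM in the JNK_KO lines (chromosome 8). Only JNK_KO replicate 1 lay above both JNK_WT lines, and this line was also the one with the lowest Erbb3. The log2 difference was 0.36 (SE 0.54, limma adjusted p-value 0.997), and it was -0.24 without JNK_KO replicate 1. Of the 5 remaining genes of the family, the receptor gene Erbb4 was at most 0.00925 FPKM and Nrg3 at most 0.00547 FPKM in any line. Nrg2, another neuregulin gene, was at 0.444 and 8.85 FPKM in the JNK_WT lines and at 3.38 and 4.26 FPKM in the JNK_KO lines, a 20.0-fold gap within JNK_WT. Epgn, the epigen gene next to Ereg at 91027464 to 91035215, was at 0.171 and 1.03 FPKM in the JNK_WT lines and at 0.494 and 3.57 FPKM in the JNK_KO lines, so that the line highest in Areg was not the highest in Epgn. Nrg4 was between 1.56 and 2.48 FPKM. The groups of Nrg2, Epgn and Nrg4 overlapped, and limma called none of them (smallest adjusted p-value 0.957).

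Genes that act around the receptors were examined as 4 lists. Limma called 0 of their genes, and of the 49 tested genes of these lists and the remaining family, 5 had unadjusted p-values under 0.05 (7.63% of all genes). The groups did not overlap for 17 of the 49, of which 7 were above (18.3% of all genes) and 10 below (16.7%) in JNK_KO lines.

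Of 8 tested genes for ligand processing, 7 had higher means in JNK_KO lines, beside 6680 of all 12998 genes tested. The groups were separate for 4, all with JNK_KO above (18.3% of all genes). The median log2 difference was 0.41, beside 0.01 over all genes. The largest differences were those of the metalloprotease genes Adam9 (0.79, SE 0.39) and Adam15 (0.75, SE 0.28) and of Nrd1, the gene for nardilysin, which aids ligand release (0.53, SE 0.32). Adam9 was at 41.3 and 20.9 FPKM in the JNK_WT lines and at 50.1 and 53.0 FPKM in the JNK_KO lines. Adam17, the main sheddase of TGF-alpha, amphiregulin and HB-EGF, was at 23.8 and 35.4 FPKM in the JNK_WT lines and at 25.7 and 23.5 FPKM in the JNK_KO lines, with overlapping groups. Limma adjusted p-values in this list were at least 0.657.

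The 10 adaptor genes had 2 higher and 8 lower means in JNK_KO lines, where 48.6% of all genes were lower. Their median log2 difference was -0.10, and -0.31 without JNK_WT replicate 1. Eps8, an EGFR substrate that links to actin, had a difference of -0.65 (SE 0.26), Grb7, which binds ERBB2 and lies next to its gene, of -0.64 (SE 0.44), and Sos2, a RAS exchange factor, of -0.56 (SE 0.29). The groups of Grb7 overlapped, while those of Eps8 and Sos2 did not. Eps8 lies on chromosome 6, as Tgfa does, where the median difference was -0.59, and the part of that shift in the Eps8 difference was not tested.

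Of the 14 negative regulators, 11 had lower means in JNK_KO lines (48.6% of all genes), with a median of -0.30. Unadjusted limma p-values under 0.05 were found for 3 of them (7.63% of all genes). Errfi1, whose product binds and blocks the EGFR kinase domain, went the other way. It was at 70.2 and 64.0 FPKM in the JNK_WT lines and at 163 and 107 FPKM in the JNK_KO lines. Both JNK_KO lines lay above both JNK_WT lines, with a log2 difference of 0.97 (SE 0.29, limma adjusted p-value 0.519). Spry2, an inhibitor of the RAS-ERK pathway, was at 20.8 and 29.2 FPKM against 13.5 and 12.9 FPKM, a difference of -0.85 (SE 0.29). Spred2, of a related family, had a difference of -0.77 (SE 0.40). Lrig1, which promotes receptor degradation, was the remaining gene with an unadjusted p-value under 0.05 beside Errfi1 and Spry2, at 39.7 and 53.7 FPKM against 25.3 and 28.9 FPKM, a difference of -0.75. It was chosen after its values were seen. Lrig1 too lies on chromosome 6, of whose genes 56.2% were lower in both JNK_KO lines, and the part of that shift in the Lrig1 difference was not tested.

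Among the 14 genes known to be induced by EGF or ERK signals, 10 had lower means in JNK_KO lines (48.6% of all genes) and 4 higher. Their median log2 difference was -0.25. Dusp6, an ERK phosphatase gene, was at 85.5 and 207 FPKM in the JNK_WT lines and at 72.0 and 38.4 FPKM in the JNK_KO lines. Its difference was -1.32 (SE 0.56, limma adjusted p-value 0.711). Etv5, an ETS transcription factor gene, was at 62.2 and 90.7 FPKM against 36.8 and 23.7 FPKM, a difference of -1.32 (SE 0.35, limma adjusted p-value 0.458). Plaur, the urokinase receptor gene, lies on the same side with -1.19 (SE 0.41). These 3 genes were named for having the largest absolute differences of the list. They were also the 3 of the 14 with both JNK_KO lines below both JNK_WT lines (16.7% of all genes). Dusp4 was the 1 gene with both JNK_KO lines above (18.3% of all genes), and the groups overlapped for 10. JNK_WT replicate 2, the line highest in 6 of the 9 ERBB system genes, was highest in 8 of these 14 genes, where it was highest in 26.9% of all genes tested. Over the 4 fits that each left out 1 line the median of the list ranged from -0.99, without JNK_WT replicate 1, to -0.10.

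**Figure D5:**
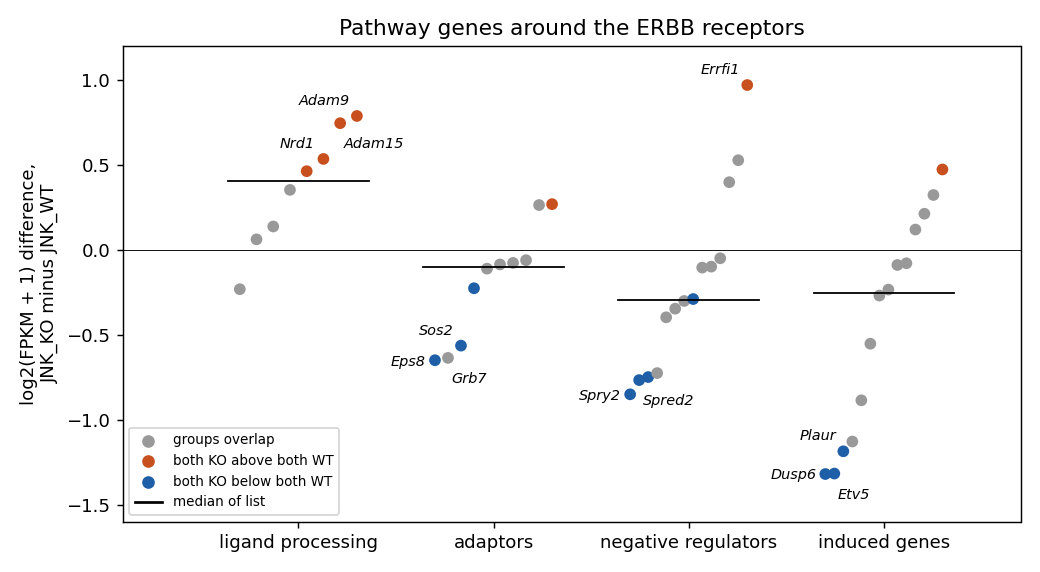
Difference in log2(FPKM + 1), JNK_KO minus JNK_WT (y axis), of each tested gene in 4 lists of ERBB pathway genes (x axis), sorted within a list. Color shows whether both JNK_KO lines lay above or below both JNK_WT lines, black bars mark the medians of 0.41, -0.10, -0.30 and -0.25, and the 3 genes with the largest absolute difference are named.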

How the data were processed

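RNA-seq libraries from 4 mammary tumor cell lines were compared, grouped and numbered by the sample titles. The authors trimmed single-end reads with Trimmomatic, sampled them with seqtk, aligned them to mm10 (GRCm38) with TopHat2 and Bowtie2, and deposited FPKM values per gene and library from Cufflinks. The submitters' processing notes name TopHat2 2.0.14 and Cufflinks 2.2.1. The annotation and any strand setting are not given in the sources used here. Cufflinks estimates how reads of overlapping genes are shared, so these can trade reads.

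Of 38741 rows, 27 with symbols turned into dates and 1 without a value were left out. Genes with at least 1 FPKM in at least 2 libraries (12998) were tested on log2(FPKM + 1) by limma 3.58.1 (intensity trend, two-sided, Benjamini-Hochberg) in R 4.3.3, checked on simulated data. A log2 difference on this scale understates the change of low genes. The study's own test needs alignments and was not run. Replicates are separate lines. The deposited table gives no read counts. Steps of low values gave depths, relative to JNK_KO replicate 1, of 1.07, 1.27 and 1.41 for JNK_WT replicates 1 and 2 and JNK_KO replicate 3, and no interval that needs counts was computed. Positions came from the GENCODE annotation of GRCm38 by symbol, and promoters from RefSeq. Figures used matplotlib 3.10.9.

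The members and lists were chosen with earlier results of these data known. Named were all members, the rest of the family, the targeted genes, the 3 tested genes with the largest absolute difference per pathway list and the 3 genes most like the member of widest range. Other genes named serve as markers, overlap or neighbours, or were chosen after their values were seen (Adam17, Lrig1, Cxcl1, Cxcl5).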

Additional observations from a re-analysis of the deposited data

How the results depend on the processing

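No paired analysis was made because the lines are separate and no label pairs a JNK_WT line with a JNK_KO line. FPKM are not counts, so no count model was fitted. The count of genes called by limma, 0 beside 992 with an unadjusted p-value under 0.05, rose to 10 at a pseudocount of 0.1 and 14 at one of 0.5, and was 14 with each library scaled to the same FPKM sum and 14 without the intensity trend, and the cause was not tested. With no filter, a minimum mean of 5 FPKM, quantile or upper quartile scaling, robust variances or 1 library left out, it was 0. None of the 9 ERBB system genes and none of the pathway genes tested was called under any of these settings, and none of the 9 changed direction under the 9 settings that kept all libraries. Leaving out 1 library changed the direction of 7 of the 9, with ranges of -0.34 to 0.30 for Egfr, -1.40 to 0.29 for Erbb2, -0.99 to 0.55 for Erbb3, -2.31 to 1.54 for Areg, -0.91 to 1.21 for Ereg, -1.37 to 0.18 for Btc and -0.24 to 0.96 for Nrg1. Tgfa (-1.20 to -0.93) and Hbegf (-1.36 to -0.06) kept theirs. The median difference of the genes within 1 Mb of Btc, 0.41, was -0.11 within 5 Mb. For the ligand and receptor sums, quantile normalization moved the difference between groups by less than the spread between lines.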
